A study of Homo sapiens with 16 samples.

Results

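The genes described here are 9 nuclear genes that encode subunits of the mitochondrial respiratory chain and ATP synthase: NDUFS1, NDUFS5 and NDUFA10 of complex I, SDHB and SDHC of complex II, UQCRH of complex III, COX5B and COX7A2L of complex IV, and ATP5F1 of complex V. They were chosen by symbol and not by a cut on any measured value, but with earlier results of these data known. Each is represented by its transcript with the most mRNA-Seq counts. All 9 were found among 1869 named genes and 19044 transcripts that could be joined between Ribo-Seq and mRNA-Seq, and all 9 were among the 10970 transcripts that passed a filter on low counts in both assays. Symbols were read for only part of the transcripts, and all 9 genes lie on chromosomes 1 and 2. The other subunits of these complexes were, apart from those named below, not analysed here.

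Ribosome-protected fragments (RPFs, sequenced by Ribo-Seq) and mRNA were counted in HEK293T cells, a line derived from human embryonic kidney, so all groups share 1 genetic background. Cells were left untreated or received tunicamycin (Tm, 1 µg/ml), Tm with ISRIB (200 nM), or ISRIB (200 nM) for 1 hr. Tm blocks N-linked glycosylation in the endoplasmic reticulum (ER) and so activates the eIF2α kinase PERK, and ISRIB is a small molecule that counters the effects of eIF2α phosphorylation on translation. All cells received cycloheximide (100 µg/ml) before lysis. Each of the 4 treatments has 2 lysates, a and b, and each lysate was split between the assays, which gives 8 libraries of each kind. The study describes a and b as biological replicates, and p-values measure the spread between these samples.

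Complexes I to IV pass electrons from NADH and succinate to oxygen, and complexes I, III and IV pump protons whose gradient drives ATP synthesis by complex V. The subunits described here are made on cytosolic ribosomes, imported into mitochondria and, except in complex II, assembled with subunits translated inside the organelle from mitochondrial DNA. Phosphorylation of eIF2α lowers initiation on most mRNAs and raises it on a few with particular upstream reading frames.

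Joined counts ranged from 3001612 to 11469150 per Ribo-Seq library and from 8466193 to 24499266 per mRNA-Seq library. The members had 148 to 5441 RPF counts and 218 to 11053 mRNA counts in any library. Counts were scaled within each assay to CPM, counts scaled to a common library total, by edgeR's TMM method, so a change in total translation or in total mRNA was not measured, and fewer cells and less RNA per cell cannot be told apart in bulk lysates. Of markers of the line, the intermediate filament gene NES had 28 to 95 mRNA counts per library and the kidney progenitor gene SIX2 had 53 to 176. Their RPF counts were 1 to 22 and 4 to 49, so both genes were low at this depth. One pair of libraries stood apart: the chi-square per degree of freedom between replicates was 12.1 for the mRNA of ISRIB-treated cells and 1.63 to 5.48 in the other 7 pairs. In that pair, 8 of 9 members were lower in replicate b, with a median log2 difference of -0.23, and SDHC was higher by 0.22. Results that rest on these libraries are given with that in view.

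In untreated cells the members carried more footprints for their length than most transcripts, with a 6.33-fold range among themselves. To compare genes, CPM was divided by the codons counted and is given as density, in CPM per 100 codons. RPF density was highest for UQCRH (347 ± 29.04, SD, n = 2) and NDUFS5 (324 ± 45.5), whose replicates overlap. ATP5F1 (204 ± 1.82), COX5B (179 ± 1.26), SDHC (149 ± 9.10) and SDHB (129.6 ± 14.9) followed. NDUFA10 (62.9 ± 1.65), COX7A2L (58.5 ± 0.0478) and NDUFS1 (54.8 ± 1.94) were lowest, and apart from UQCRH and NDUFS5 no neighbours in this order overlapped. The median of all tested transcripts was 6.26, and each member lay between the 90.1 and the 98.3 percentile. With the annotated length, which is 20 codons longer in each gene, COX7A2L (48.3) was lowest, below NDUFS1 (53.3), the replicates of SDHC and SDHB overlapped, and the range was 5.63-fold. With 2 replicates, an order without overlap is a description and was not tested.

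The order of mRNA densities was the same for the 4 genes at the top but not for those below. UQCRH led with 383 ± 29.5 CPM per 100 codons, then NDUFS5 (227 ± 25.9), ATP5F1 (165 ± 2.76), COX5B (111 ± 2.40) and SDHB (72.8 ± 1.93). NDUFS1 (36.2 ± 0.647) overlapped with NDUFA10 (35.7 ± 0.805), and SDHC (32.5 ± 0.704) overlapped with COX7A2L (32.3 ± 0.598). The mRNA densities spanned 11.8-fold from UQCRH to COX7A2L. The median of all tested transcripts was 6.87, and each member lay between the 87.9 and the 98.9 percentile, so the members were high in mRNA as in footprints. With the annotated length the order was the same, and neither of these pairs overlapped.

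**Figure D1:**
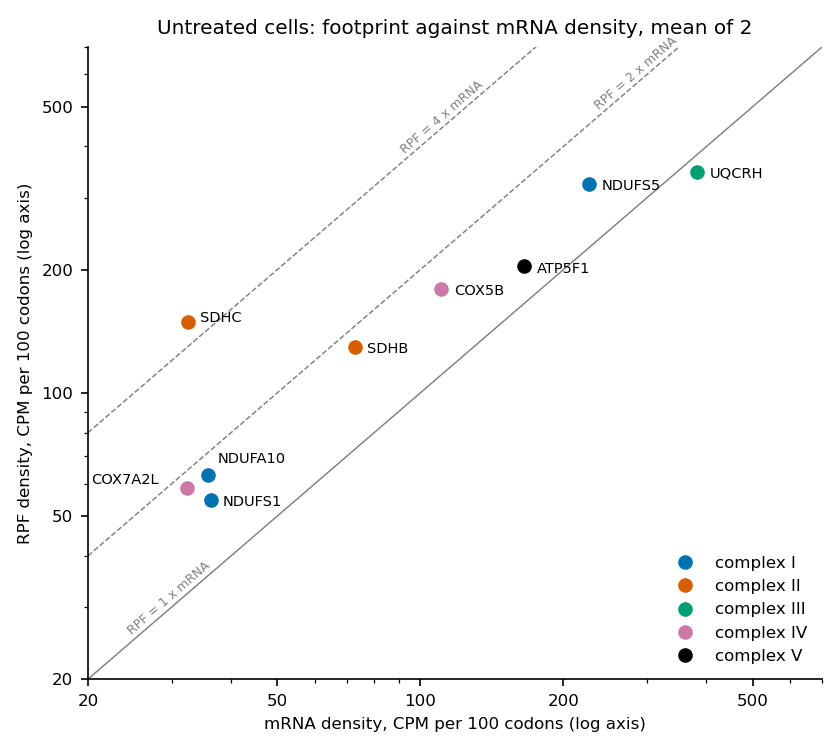
Mean RPF density against mean mRNA density of the 9 genes in untreated cells (n = 2 libraries per assay), in CPM per 100 counted codons on log axes. Colours give the complex, and lines mark RPF densities 1, 2 and 4 times the mRNA density. SDHC lies above the 4-fold line, UQCRH just below the line of equality and the other 7 genes between the lines for 1 and 2 times.

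Translational efficiency (TE) is taken here as RPF over mRNA, each scaled within its assay, on a log2 scale where 0 means equal shares in both assays. SDHC had the highest value, 2.23 in replicate a and 2.15 in replicate b, with the mean at the 94.98 percentile of the 10970 transcripts. The next 3 genes each overlapped their neighbour in this order: COX7A2L (0.86 ± 0.03, SD, n = 2), SDHB (0.83 ± 0.20) and NDUFA10 (0.82 ± 0.01). COX5B (0.70 ± 0.02), NDUFS1 (0.60 ± 0.03), NDUFS5 (0.51 ± 0.04) and ATP5F1 (0.30 ± 0.04) followed, and UQCRH was the only member below 0, at -0.15 and -0.14. The median of the 9 genes was 0.70, against 0.03 for all tested transcripts, whose quartiles were -0.71 and 0.80.

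SDHB and SDHC together show how far footprints and mRNA can differ within a complex. SDHB is the iron-sulfur subunit of succinate dehydrogenase (chr1:17018722-17054170, GRCh38, minus strand) and SDHC is one of its membrane anchors (chr1:161314257-161375340, plus strand). The RPF density of SDHC exceeded that of SDHB in all 8 lysates, with a mean SDHB to SDHC ratio of 0.849 (log2 -0.24 ± 0.12, SD, n = 8). For mRNA the order was the opposite, with a ratio of 2.35 (log2 1.23 ± 0.26). The difference between the ratios was -1.47 ± 0.34 on the log2 scale, below 0 in 8 of 8 lysates, so SDHC carried 2.77 times as many footprints per mRNA as SDHB (exact two-sided sign-flip permutation test over lysates, p = 0.0078, the smallest this test can give, and 0.0195 adjusted over 5 pairs, where the threshold was 0.05). By lysate it was -1.26 and -1.47 in untreated cells and -1.89 and -1.68 with Tm. With Tm and ISRIB it was -1.68 and -1.70, and with ISRIB -1.25 and -0.82. For every pair the test takes the 8 lysates as independent, although each treatment gave 2 of them. The SD over lysates also covers differences between treatments.

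The SDHC value comes with a limit in the sequence. Of the 483 windows of 28 bases in its coding sequence, 66.9% also stand in annotated transcripts of 5 other genes, processed pseudogenes among them, of which AC130689.1 on chromosome 17 holds 56.1%. How reads that fit several places were assigned is not given in the sources used here, and the submitters' processing notes list both Bowtie and TopHat2. The share for SDHB was 0.49%. The part of these copies in the SDHC values was not tested.

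The longest run of SDHC coding sequence whose every window was found in no other gene covers bases 108 to 195 from the start codon and is shown because reads there can come from SDHC alone among annotated transcripts (GENCODE v29; capitals mark bases that no shared window touches). The same stretch of ATP5F1, bases 78 to 157, is set beside it, since 53.9% of its 744 windows are shared.
SDHC: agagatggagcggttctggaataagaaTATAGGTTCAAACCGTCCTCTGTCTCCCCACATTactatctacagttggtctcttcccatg
ATP5F1: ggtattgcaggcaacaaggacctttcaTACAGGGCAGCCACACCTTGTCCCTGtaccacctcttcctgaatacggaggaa

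Among the other pairs of the same complex, only NDUFS5 and NDUFA10 differed past the threshold of 0.05 on the adjusted p. NDUFS5 (chr1:39026318-39034636, plus strand) and NDUFA10 (chr2:239892450-240025402, minus strand) are accessory subunits of complex I. NDUFS5 had 5.24 times the RPF density and 6.02 times the mRNA density of NDUFA10, and the log2 difference of the ratios was -0.20 ± 0.09 (SD, n = 8), below 0 in 8 of 8 lysates (exact sign-flip permutation p = 0.0078, 0.0195 adjusted over the 5 pairs). Over NDUFS5, 28.6% of windows are shared with other annotated transcripts, and over NDUFA10 0%.

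For NDUFS1, the largest iron-sulfur subunit of complex I (chr2:206114817-206159603, minus strand), the difference was -0.12 ± 0.14 (SD, n = 8) against NDUFA10 (exact sign-flip permutation p = 0.0469, adjusted 0.0781), with lysates from -0.32 to 0.08. Against NDUFS5 it was 0.08 ± 0.16 (exact sign-flip permutation p = 0.203, adjusted 0.203), with lysates from -0.25 to 0.20. For COX5B and COX7A2L it was -0.13 ± 0.20 (exact sign-flip permutation p = 0.102, adjusted 0.127), with lysates from -0.39 to 0.25. COX5B had 3.17 times the RPF density of COX7A2L. In these pairs the sign went by treatment. NDUFS1 with NDUFA10 (0.07 and 0.08) and COX5B with COX7A2L (0.02 and 0.25) were above 0 only in the Tm lysates. NDUFS1 with NDUFS5 was below 0 only in the ISRIB lysates (-0.03 and -0.25). Differences between treatments in these pairs were not tested. A p above the threshold does not show that the members of these 3 pairs had equal efficiency. Without Tm replicate b, NDUFS1 with NDUFA10 and COX5B with COX7A2L passed it.

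**Figure D2:**
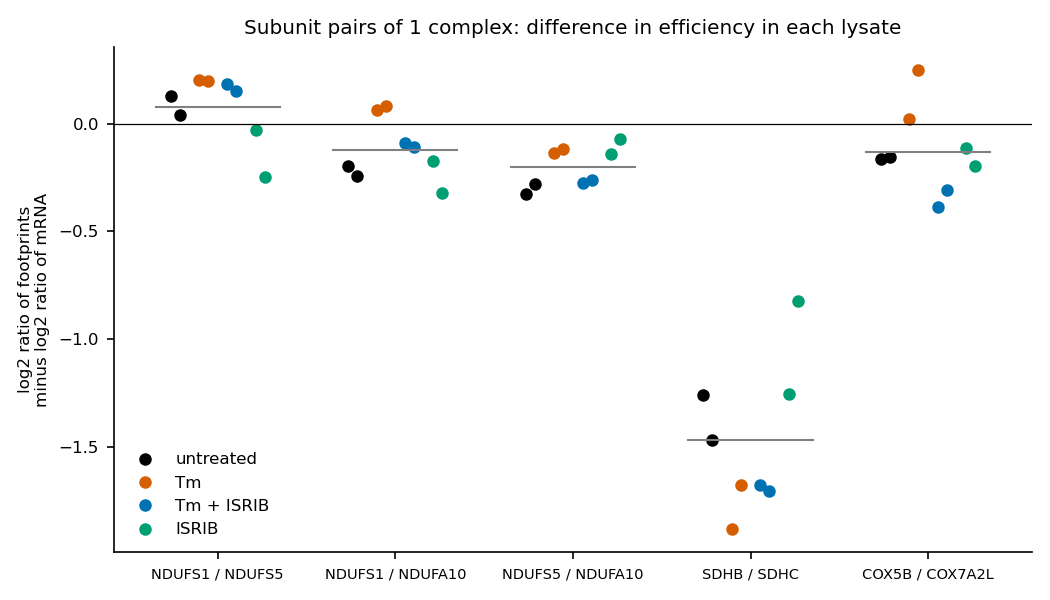
Difference in efficiency between subunits of the same complex, as the log2 ratio of footprints minus the log2 ratio of mRNA, in each of 8 lysates. Points are lysates coloured by treatment and grey lines are means. All SDHB / SDHC lysates lie between -1.89 and -0.82, and the other pairs between -0.39 and 0.25.

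With Tm, the summed footprints of the members were 0.999 times those in untreated cells. Their summed RPF level was 2433 and 2440 CPM in the untreated replicates, 2423 and 2445 with Tm, 2383 and 2386 with Tm and ISRIB, and 2464 and 2422 with ISRIB. Relative to the untreated mean, the sums with Tm were 1.03 times for complex I, 1.03 for complex II, 0.923 for complex III, 0.974 for complex IV and 0.957 for complex V. Summed mRNA was 1607 and 1667 CPM untreated, 1678 and 1658 with Tm, 1732 and 1710 with Tm and ISRIB, and 1620 and 1409 with ISRIB, the low value being the replicate b library named above. These sums are descriptions with no test.

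Counted by gene, 0 of 9 members were called in RPFs with Tm by edgeR's quasi-likelihood test at a false discovery rate (FDR) of 0.1, where 13.5% of all tested transcripts were called. At an unadjusted p under 0.05 there were 3 members, against 2589 of all 10970 tested transcripts, and DESeq2 called 0 members, against 744. Counts marked all, here and below, give the same over all tested transcripts. Log2 changes ran from -0.24 for COX7A2L to 0.17 for SDHC, with a median absolute change of 0.11 against 0.17 for all transcripts. The members had higher RPF densities than most transcripts, and no set of like counts was compared. These medians therefore do not show that the members changed less. In mRNA 0 of 9 were called, against 11%, with 0 (all: 2817) at an unadjusted p under 0.05 and 0 (all: 694) by DESeq2. In TE 1 of 9 was called, SDHC, against 15.9% of transcripts. The comparisons with untreated cells share the same untreated libraries, and those of Tm share the Tm libraries. No 95% interval of an RPF change in Tm went beyond -0.47 or 0.33, so a 2-fold change lay outside all 9 intervals.

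**Figure D3:**
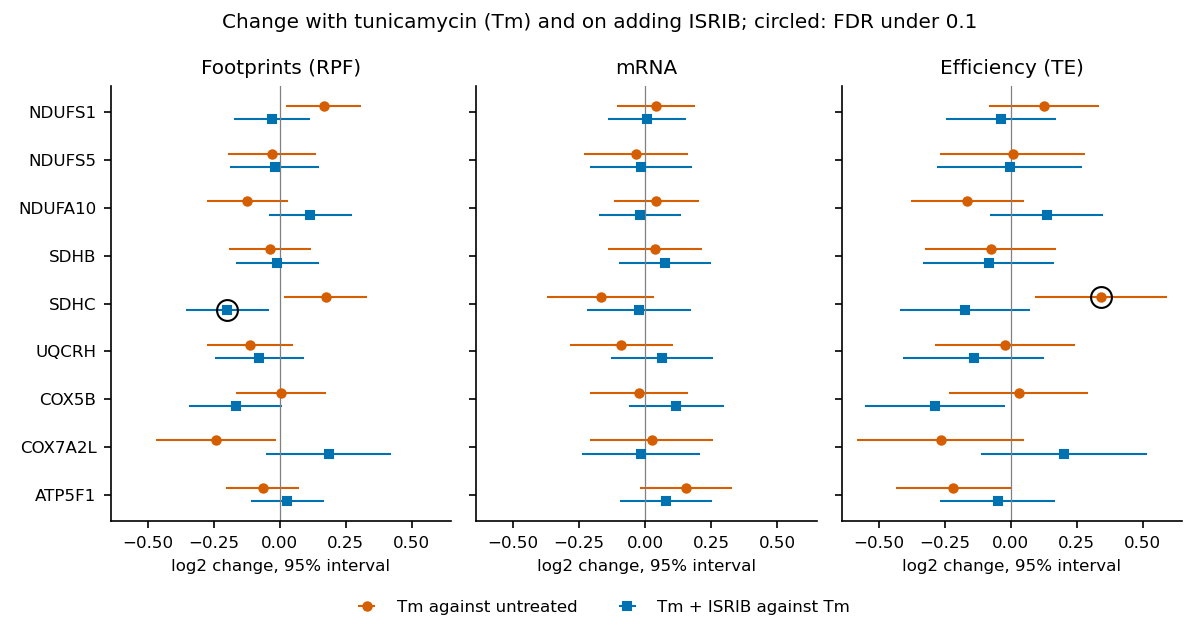
Log2 changes of the 9 genes with 95% intervals from edgeR in RPFs, mRNA and TE, for Tm against untreated (orange circles) and for Tm and ISRIB against Tm (blue squares). Black rings mark an FDR under 0.1. The rings are on SDHC in TE with Tm and on SDHC in RPFs when ISRIB was added, and all values lie between -0.29 and 0.34.

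SDHC was the only member called with Tm, and only in TE. Its RPF level was 233 and 213 CPM in untreated cells, 260.2 and 241 with Tm, 215 and 222 with Tm and ISRIB, and 204 and 209 with ISRIB. Its mRNA was at 49.4 and 47.9 CPM untreated, 41.3 and 45.2 with Tm, 42.1 and 43.0 with Tm and ISRIB, and 48.6 and 56.5 with ISRIB. Both Tm libraries were above both untreated ones in RPFs and below both in mRNA. TE rose by 0.34 ± 0.12 on the log2 scale (SE, 95% interval 0.09 to 0.59, edgeR FDR 0.073), or 1.27-fold, while neither part passed by itself (RPFs 0.17 ± 0.08, FDR 0.16, and mRNA -0.17 ± 0.09, FDR 0.27). The TE call was lost without any 1 untreated, Tm or Tm + ISRIB lysate, with an FDR of up to 0.47 and changes of 0.22 to 0.46. DESeq2 did not call it (FDR 0.12).

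When ISRIB was added to Tm, 1 of 9 members was called in RPFs, again SDHC, against 17.7% of all transcripts. It fell by 0.20 ± 0.08 (SE, log2, 95% interval -0.36 to -0.04, edgeR FDR 0.094), and both libraries lay within the untreated range. The call was lost with the replicate letter as a block (FDR 0.10), with DESeq2 (FDR 0.16) and without either Tm, either Tm + ISRIB or either ISRIB lysate (FDR up to 0.46). Without Tm replicate a, COX5B was called in its place. In mRNA 0 of 9 were called, as were 0% of transcripts, and 0 by DESeq2 (all: 0). Unadjusted p was under 0.05 for 0 members (all: 198). In TE 0 of 9 were called against 6.11%, and 0 by DESeq2 (all: 404). COX5B was the only member at an unadjusted p under 0.05 (all: 1899). SDHC's TE change was -0.17 ± 0.12, and the test of whether ISRIB altered the effect of Tm on its TE gave an interaction of 0.04 ± 0.17 (edgeR FDR 0.94).

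ATP5F1 encodes subunit b of the peripheral stalk of ATP synthase and is named ATP5PB in current annotation (chr1:111448864-111462773, plus strand). Its mRNA was at 397 and 387 CPM in untreated cells, 442 and 429 with Tm, 465 and 455 with Tm and ISRIB, and 414 and 353 with ISRIB. All 4 libraries from Tm-treated cells were above both untreated ones. In Tm with ISRIB against untreated, the mRNA rose by 0.23 ± 0.08 (SE, log2, 95% interval 0.06 to 0.40, edgeR FDR 0.098), the only one of 9 members called there, against 14.2% of transcripts. With Tm alone it was 0.15 ± 0.08 (FDR 0.25).

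The ATP5F1 call was lost without either lysate of untreated, Tm or Tm + ISRIB cells (FDR up to 0.38), with DESeq2 (FDR 0.11) and with scaling by total counts (FDR 0.13). Its RPFs were not called in any comparison. They were at 480.2 and 486 CPM untreated, 455 and 470 with Tm, 475 and 468 with Tm and ISRIB, and 502 and 476 with ISRIB. TE was -0.27 ± 0.10 in Tm with ISRIB against untreated (edgeR FDR 0.14) and -0.22 ± 0.11 with Tm (FDR 0.20). Neither passed, so a difference between its RPFs and mRNA was not resolved in this fit. Of its windows, 34.5% are also in AC022968.1, a processed pseudogene on chromosome 18, and the part of such copies was not tested.

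In Tm with ISRIB against untreated cells, 0 of 9 members were called in RPFs, against 2.65% of transcripts, and 0 by DESeq2 (all: 84). UQCRH was the only member at an unadjusted p under 0.05 (all: 1453). In TE 0 of 9 were called, against 8.96%, and 0 by DESeq2 (all: 610). ATP5F1 and COX5B had an unadjusted p under 0.05 (all: 2296). COX5B is a structural subunit of cytochrome c oxidase (chr2:97646040-97648383, plus strand). Its RPF level was 196 and 198 CPM untreated, 180.2 and 218 with Tm, 183 and 170.0 with Tm and ISRIB, and 198 and 204 with ISRIB. The Tm replicates lay on either side of the untreated ones, so no direction can be read for Tm.

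COX7A2L (chr2:42333546-42425088, minus strand) encodes a COX7A-family protein known for its part in respiratory supercomplexes. Its RPF level was 55.6 and 55.5 CPM in untreated cells, 45.8 and 48.4 with Tm, 57.2 and 49.8 with Tm and ISRIB, and 53.7 and 56.4 with ISRIB. Both Tm libraries were the lowest of the 8. The change with Tm was -0.24 ± 0.11 (SE, log2, unadjusted p 0.037, edgeR FDR 0.18), from the fewest counts of any member, 197 and 148 in the Tm libraries. Its mRNA spanned 25.4 to 32.4 CPM over all 8 libraries, the lowest in ISRIB b.

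The complex I members showed no call in any comparison. NDUFS1 had RPF levels of 406 and 386 CPM in untreated cells, 440.0 and 448 with Tm, 434 and 436 with Tm and ISRIB, and 418 and 385 with ISRIB. The 4 libraries from Tm-treated cells were the highest, and the change with Tm was 0.17 ± 0.07 (SE, log2, unadjusted p 0.023, edgeR FDR 0.14). NDUFS1 mRNA stayed between 244 and 272 CPM. NDUFA10 RPFs were 196 and 192 CPM with Tm and 206.7 to 215 CPM in the other 6 libraries, a change of -0.12 ± 0.08 (FDR 0.34). NDUFS5 RPFs were between 254 and 310.0 CPM, with both ends in the untreated pair.

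SDHB RPFs likewise had both ends in the untreated pair, 366 and 311 CPM, and lay between 325 and 332 in all 6 treated libraries. Its mRNA was 186 and 194 CPM untreated, 193 and 196 with Tm, 205 and 205 with Tm and ISRIB, and 189 and 158 with ISRIB.

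**Figure D4:**
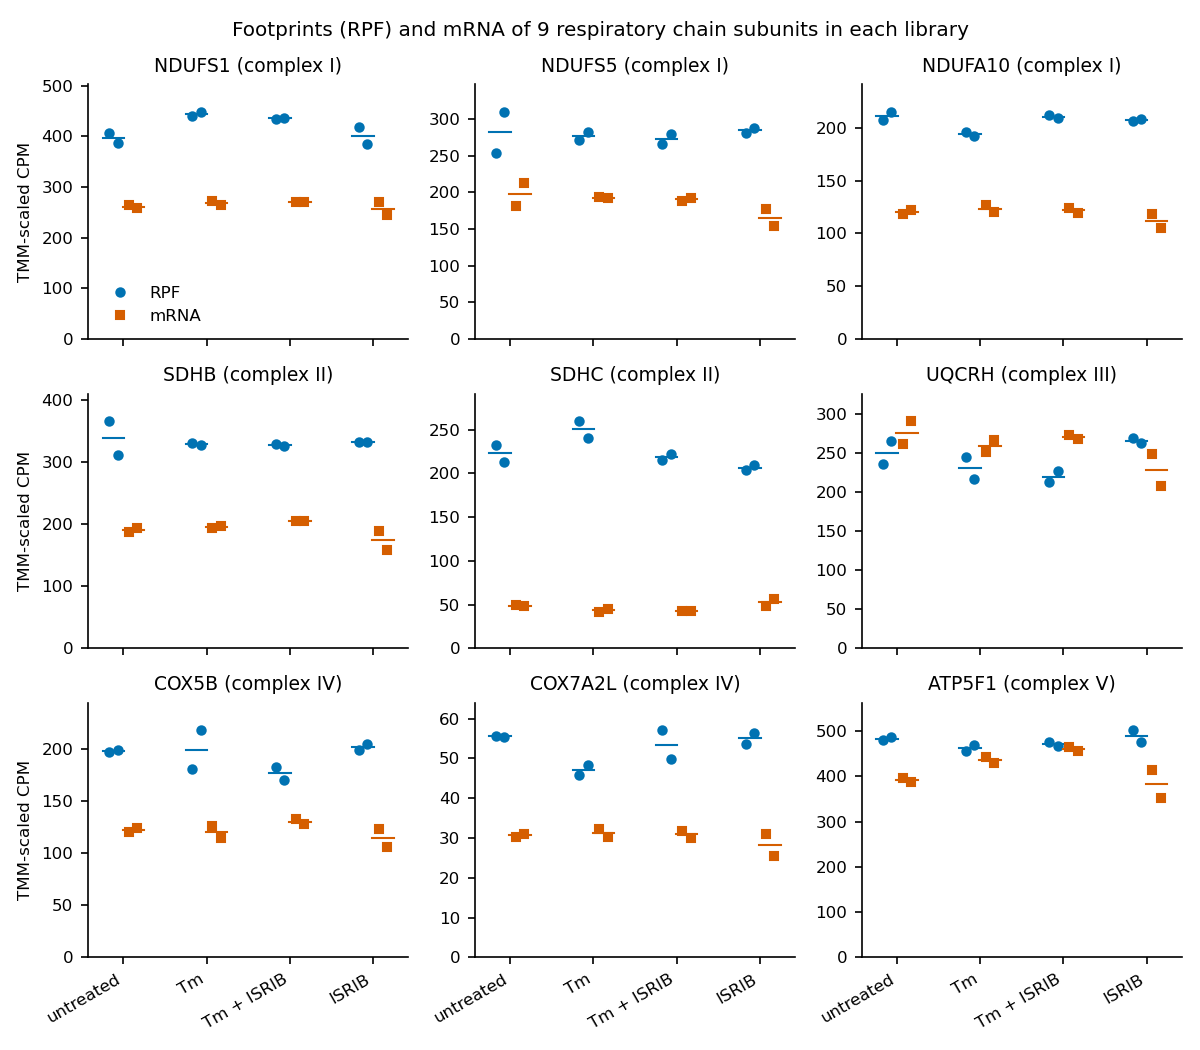
RPF (blue circles) and mRNA (orange squares) levels of the 9 genes in all 16 libraries, in TMM-scaled CPM on linear axes from 0, with replicate a left of b and lines at the mean of 2. SDHC RPFs are highest with Tm, ATP5F1 mRNA is highest with Tm and ISRIB, and 8 of 9 members have lower mRNA in ISRIB replicate b than in a.

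ISRIB alone gave no call among the members. In RPFs 0 of 9 were called, against 0.0182% of transcripts, and changes ran from -0.11 for SDHC to 0.08 for UQCRH. Unadjusted p was under 0.05 for 0 members (all: 471), and DESeq2 called 0 (all: 2). In mRNA 0 of 9 were called, against 1.15%, and 0 by DESeq2 (all: 145). NDUFS5 and UQCRH had an unadjusted p under 0.05 (all: 1584). In TE 0 of 9 were called, against 0.191%, and 0 by DESeq2 (all: 41). UQCRH alone had an unadjusted p under 0.05 (all: 975). The mRNA and TE values rest on the pair of ISRIB mRNA libraries that differed most. Without ISRIB replicate a, NDUFS5, SDHB and UQCRH were called in mRNA, and without replicate b no member was. Calls over all transcripts rose in both of these fits, so these calls do not set the members apart.

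The interaction of Tm and ISRIB asks whether Tm acted differently in the presence of ISRIB. For RPFs 0 of 9 members were called, against 6.9% of transcripts, and 0 by DESeq2 (all: 337). Unadjusted p was under 0.05 for 0 members (all: 2024). For mRNA 0 of 9 were called, against 0%, and 0 by DESeq2 (all: 16). UQCRH alone had an unadjusted p under 0.05 (all: 956). For TE 0 of 9 were called, against 1.39%, and 0 by DESeq2 (all: 156), which gave COX7A2L no adjusted p. UQCRH and COX5B had an unadjusted p under 0.05 (all: 1540). The lowest FDR was 0.21, for UQCRH in TE (-0.50 ± 0.18, SE, log2). The mRNA and TE interactions rest in part on the pair of ISRIB mRNA libraries that differed most.

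UQCRH, the hinge protein of complex III (chr1:46303631-46316776, plus strand), has an intronless near copy, UQCRHL (chr1:15807169-15809348, minus strand), that was counted as its own transcript. Both coding sequences have 276 bases and are 98.6% identical, with 4 differences at bases 158, 167, 231 and 233 counted from the start codon. They are printed here, with those bases in capitals, because most fragments of this length cannot be placed between them: 73.1% of 28-base windows of UQCRH also stand in UQCRHL.
UQCRH: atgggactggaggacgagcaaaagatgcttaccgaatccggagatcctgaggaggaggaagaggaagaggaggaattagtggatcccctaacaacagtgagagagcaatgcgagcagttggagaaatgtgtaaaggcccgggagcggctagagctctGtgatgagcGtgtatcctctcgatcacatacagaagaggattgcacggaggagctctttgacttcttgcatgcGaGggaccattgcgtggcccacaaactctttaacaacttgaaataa
UQCRHL: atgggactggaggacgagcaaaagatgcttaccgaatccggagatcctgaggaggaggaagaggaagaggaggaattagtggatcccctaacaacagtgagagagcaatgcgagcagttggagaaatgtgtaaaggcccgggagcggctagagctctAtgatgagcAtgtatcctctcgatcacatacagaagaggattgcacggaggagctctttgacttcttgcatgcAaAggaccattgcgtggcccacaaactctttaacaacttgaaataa

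UQCRHL took 30.4% to 32.3% of the RPF counts of the pair and 20.02% to 24.6% of the mRNA counts over the 8 libraries, so the split differed between the assays. UQCRH RPFs were at 235 and 265 CPM untreated, 245 and 217 with Tm, 213 and 226 with Tm and ISRIB, and 269 and 262 with ISRIB. Its mRNA was at 261 and 291 CPM untreated, 251 and 266 with Tm, 273 and 268 with Tm and ISRIB, and 248 and 208 with ISRIB. In RPFs the Tm and ISRIB pair lay below both untreated libraries and the Tm pair overlapped them. With both copies summed, the untreated log2 efficiency was 0.07 in place of -0.14, and the call counts of the members were the same in every comparison.

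Other genes of the pathway were counted from a fixed list. Among other subunits, NDUFB3, ATP5G3 and UQCRHL were not called in RPFs with Tm, and of these only ATP5G3 was called in TE. ATP5G3, a subunit of the membrane ring of ATP synthase, changed in TE by -0.37 ± 0.12 (SE, log2, edgeR FDR 0.058), with mRNA up by 0.30 ± 0.09 (FDR 0.089) and RPFs at -0.07 ± 0.07. Of 11 assembly and regulatory genes, 10 could be tested. With Tm, 0 were called in RPFs, against 13.5% of all transcripts, with 2 (all: 2589) at an unadjusted p under 0.05. DESeq2 called 0 (all: 744) and gave COX20 and COA5 no adjusted p. In TE 1 was called by edgeR, against 15.9%. It was COX20, an assembly factor of complex IV, with a TE change of 0.83 ± 0.26 (edgeR FDR 0.043), from 45 to 98 RPF counts in the untreated and Tm libraries. Its RPFs were 9.01 and 8.76 CPM in untreated cells and 11.2 and 14.7 with Tm. They were 10.5 and 8.87 with Tm and ISRIB, and 9.56 and 13.5 with ISRIB, so both ISRIB libraries were also above the untreated pair. COX20 mRNA was at 16.4 and 17.9 CPM in untreated cells and 13.6 and 13.8 with Tm, so the TE change has a part from each assay. When ISRIB was added to Tm, 4 of the 10 were called in RPFs, against 17.7% of all transcripts. CMC1 (0.50 ± 0.17, SE, log2) and LRPPRC (0.18 ± 0.07) rose, and BCS1L (-0.31 ± 0.10) and ATPIF1 (-0.27 ± 0.08) fell, with edgeR FDRs from 0.028 to 0.083. These 4 were named after their values were seen.

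For scale, 93 other nuclear genes are described in the study's gene table as encoding mitochondrial proteins. With Tm, 8 of the 93 rose and 13 fell in RPFs (22.6% called, against 13.5% of all transcripts), and 6 rose and 14 fell in TE (21.5%, against 15.9%). Their median log2 change was -0.01 in RPFs and -0.06 in TE, the members' -0.04 and -0.02, and that of all tested transcripts -0.01 and -0.00. These counts describe the lists, and no test of a difference between them was made.

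Averaged over the 9 members, the log2 RPF level moved within 0.06 across the 8 Ribo-Seq libraries, a 1.04-fold range. The named genes whose log2 RPF level was most like that average over the 8 libraries, among 938 with at least 100 counts in each, were ILKAP (Pearson r = 0.88), S100A10 (0.88), PCBP1 (0.85), GSTM3 (0.83) and MRPS25 (0.82). The libraries share treatments, the range is narrow, and these values are a description with no test.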

How the data were processed

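The authors deposited raw read counts per UCSC transcript and the number of codons counted, without normalization. The deposited counts were made on hg19. The submitters' processing notes name CASAVA 1.8, Bowtie 1.0.0 and TopHat2 2.0.10 and 2.0.7, with no roles. The treatment of reads that fit several places is not given in the sources used here. Transcripts were joined by identifier without version and equal counted length. Symbols came from the part of the study's source data that could be read. Of that table only identifiers, symbols and descriptions were used, and its values were not. The members and lists were chosen with earlier results of these data known.

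RPFs and mRNA were tested over all 8 libraries of an assay, and TE as the treatment by assay term over all 16, with edgeR 4.0.16 (R 4.3.3): filterByExpr at 10 counts in both assays, TMM, glmQLFit, glmQLFTest and Benjamini-Hochberg adjustment over 10970 transcripts, threshold FDR 0.1. The common biological coefficient of variation was 5.62% in RPFs and 6.7% in mRNA. Standard errors are the absolute log2 change over the square root of F. DESeq2 1.42.0 was an alternative. Scripts were tested on simulated data. No library pair agreed within sampling noise. Intervals cover the spread among these libraries.

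Genes named by rule are all 9 members, UQCRHL and the 5 genes most like the members' average. The rule also took other listed pathway genes past FDR 0.1 in RPFs or TE with Tm. NDUFB3 and COA5 were named outside it, and CMC1, LRPPRC, BCS1L and ATPIF1 after their values were seen. A listed gene is not reported here. To see whether replicate letters pair samples, each library was centred on its treatment and libraries with one letter were correlated. The coefficients ran from -0.05 to 0.11 in RPFs and from -0.16 to 0.38 in mRNA, and letters were not taken as pairs. Lysates pair the assays by the methods. Positions, coding sequences and 28-base windows came from GENCODE v29 (GRCh38). In all 9 members an annotated coding sequence had the counted length plus 20 codons. Tables and figures were made with Python 3.11.15, pandas 2.3.3 and matplotlib 3.10.9.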

Additional observations from a re-analysis of the deposited data

How the results depend on the processing

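The 3 called values, SDHC in RPFs and TE and ATP5F1 in mRNA, were near the threshold, and none of them changed direction under any setting run. UQCRH's untreated log2 efficiency changed sign, from -0.14 to 0.07, when UQCRHL was added. RLE size factors, and UQCRH summed with UQCRHL, changed no count of called members. With total counts, 2 members were called in RPFs with Tm (NDUFS1 and SDHC, all: 1608) and 2 for Tm + ISRIB against Tm (COX5B and SDHC, all: 2109). In mRNA for Tm + ISRIB against untreated 0 were called (all: 1608). Of all transcripts called in RPFs with Tm, 1069 of 1608 were higher with total counts and 694 of 1485 with TMM, and in TE 1321 of 1945 and 790 of 1746, so most calls were lower with TMM and higher with total counts. DESeq2 called 0 members in each of the 3 comparisons with a call. Over all transcripts it called 1002 in RPFs for Tm + ISRIB against Tm and 776 in mRNA for Tm + ISRIB against untreated. In TE with Tm it called 1204. Without the filter, 0 members were called in RPFs for Tm + ISRIB against Tm (all: 2020 of 14187). Fitting only the treatments compared called 1 member (ATP5F1) in mRNA with Tm (all: 3152 of 10826). For Tm + ISRIB against untreated it called 2 (ATP5F1 and SDHC) in mRNA (all: 2966 of 10990). In TE there it called 1 (ATP5F1, all: 1307 of 10990).

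Same-letter libraries correlated above 0.1 in 1 of 6 mRNA pairs and 2 of 6 RPF pairs. The highest coefficient was 0.38, for the mRNA of Tm + ISRIB and ISRIB cells. With the letter as a replicate block, 0 members were called in RPFs for Tm + ISRIB against Tm (all: 2001). No other count of members changed. Over all transcripts, the block raised mRNA calls from 1209 to 1780 with Tm, and from 1558 to 2042 for Tm + ISRIB against untreated. What the letters share in mRNA was not tested. With the lysate as a block, SDHC in TE with Tm had an edgeR FDR of 0.091.

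Leaving out 1 lysate at a time, calls in RPFs ranged from 0 to 2 with Tm (2 without untreated a), 0 to 1 for Tm + ISRIB against Tm, and 0 to 1 for Tm + ISRIB against untreated (UQCRH without untreated a). In mRNA they ranged from 0 to 1 with Tm (ATP5F1 without either ISRIB lysate), 0 to 2 for Tm + ISRIB against untreated (ATP5F1 and SDHC without either ISRIB lysate), 0 to 3 with ISRIB, and 0 to 1 for the interaction (UQCRH without ISRIB a). In TE they ranged from 0 to 2 with Tm (ATP5F1 and SDHC without ISRIB a) and 0 to 1 for Tm + ISRIB against untreated (ATP5F1 without either ISRIB lysate). A treatment left with 1 lysate is assumed to vary like the others. Over all transcripts, leaving out either ISRIB lysate also raised mRNA calls in every comparison but Tm + ISRIB against Tm. It raised TE calls with Tm and for Tm + ISRIB against untreated too. Added member calls at these settings therefore do not set the members apart. The NDUFS1 and NDUFA10 difference ranged from -0.15 to -0.095 and that of COX5B and COX7A2L from -0.19 to -0.095. In untreated lysates alone the NDUFS5 and NDUFA10 difference was -0.30. The log2 range of RPF density among members in untreated cells was 2.66, 2.49 with the annotated length and 3.20 with UQCRH and UQCRHL summed. The cause of the shifts with the lysates used was not tested. With 2 lysates a treatment, changes as small as those of most members were not resolved.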
